A study of Caenorhabditis elegans with 16 samples.

Results

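The chaperonin containing TCP-1, known as CCT or TRiC, is the folding chamber of the cytosol, and its subunits are encoded in C. elegans by cct-1 to cct-8. The members were taken from the table of normalized counts by gene symbol, with all their transcripts. This gave 8 genes with 11 transcripts, of 21541 genes with 26080 transcripts in the table. CCT is a double ring in which every position is held by a different subunit, so that the complex needs all of them. It binds unfolded actin and tubulin, many of which are handed over by prefoldin, and WD40 proteins, and it closes over them and folds them with ATP. In contrast to small heat-shock proteins and inducible HSP70, it is mainly a housekeeping chaperone that follows protein synthesis.

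Poly(A) RNA of whole worms at the L4 stage was sequenced in 16 libraries from 3 strains. N2 is the wild type, with 3 standard libraries and 3 heat-shocked ones. The ADAR mutants carry alleles of both ADAR genes of the worm, adr-2, whose product turns adenosine into inosine in double-stranded RNA, and adr-1, whose product binds RNA and modulates editing. The strain BB4 holds adr-1(gv6) on chromosome I and adr-2(gv42) on chromosome III and has 3 and 3 libraries. The strain BB21 holds adr-1(tm668) on chromosome I and adr-2(ok735) on chromosome III and has 2 and 2. Heat shock was 75 min at 34 °C given to L4 larvae raised at 20 °C, with harvest after 20 min at room temperature plus 3 h at 20 °C, and the standard groups had 20 °C only. The study set N2 beside BB4 and BB21 together to ask how ADARs bear on the response to heat, and the 2 strains also form 1 group of 5 libraries here. The replicates are biological according to the labels.

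The libraries were divided into sets by the endings of their titles. The 12_7 set (6 libraries of all 3 strains) and the 28_6 set (4 libraries of N2 and BB4) are shallow, with 4699505 to 9624995 reads each. The other 6 libraries hold 1 pair of each strain, have 30011732 to 35693369 reads and are called the deep set. Their titles have 4 different endings, also within the BB4 pair, and joining them to 1 set was a choice of the analysis, so strains within it need not share a batch. Depth cannot be told apart from whatever else differs between the deep set and the others. Normalized counts of adr-2 (T20H4.4) were 732.4 to 1442.0 in N2, 247.3 to 593.0 in BB4 and 139.6 to 162.4 in BB21, so the mutant libraries lay below all N2 libraries. Of the marker lists of 8 tissues and germ cell types, no transcript was at 0 in a whole group. The labels give no sort or dissection, so fewer cells of a type and less RNA per cell cannot be told apart.

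All 11 CCT transcripts passed the filter on low values and were present in every library, with 244 (cct-3) to 46502 (cct-5, C07G2.3b) reads. None of the 11 was called for heat shock or for the ADAR mutations in the test over all transcripts. A transcript was called when its adjusted p was under 0.05 (limma on log2 of the normalized count plus 1, Benjamini-Hochberg adjustment over 24401 transcripts). For heat shock 2.90% of all transcripts were called in N2 and 7.40% in the mutants. For the mutations it was 0.00410% under standard conditions and 0% after heat shock. With such shares, 0 of 11 is not particular to CCT. In the same fit 3 of 9 inducible heat-shock genes rose in N2 and 6 of 9 in the mutants. Between the sets of libraries cct-3 and cct-8 differed by 3.04- and 3.05-fold and were higher in the deep set, in which 43.5% of all transcripts differed by more than 2-fold, so a difference of this kind is not particular to CCT.

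The order of the levels was compared per kilobase of spliced transcript, with lengths from WBcel235 models, which are not the WS220 models used for counting. In N2 under standard conditions the C07G2.3b transcript of cct-5 led with a normalized count per kilobase of 12159 ± 2531 (SD, n = 3). It was followed by cct-4 with 3892 ± 496 (SD, n = 3), and cct-3 stood last with 395 ± 321 (SD, n = 3). The SDs of cct-5 and cct-4 did not meet, whereas from cct-4 down to the F01F1.8a transcript of cct-6, ranked 7 with 1930 ± 181 (SD, n = 3), the SDs of neighbours met. From ranks 8 to 11, held by both cct-7 transcripts, cct-8 and cct-3, neighbours again met. In each set the C07G2.3b transcript was first and cct-3 last, and cct-4 was ranked 2 in the 12_7 and 28_6 sets and 3 in the deep set. The transcripts C07G2.3a and C07G2.3b were placed on the same current model, and reads that align to both were counted for both, so neither level is that of an isoform alone. The cct-8 transcript was placed on the model of isoform a of its gene.

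**Figure D1:**
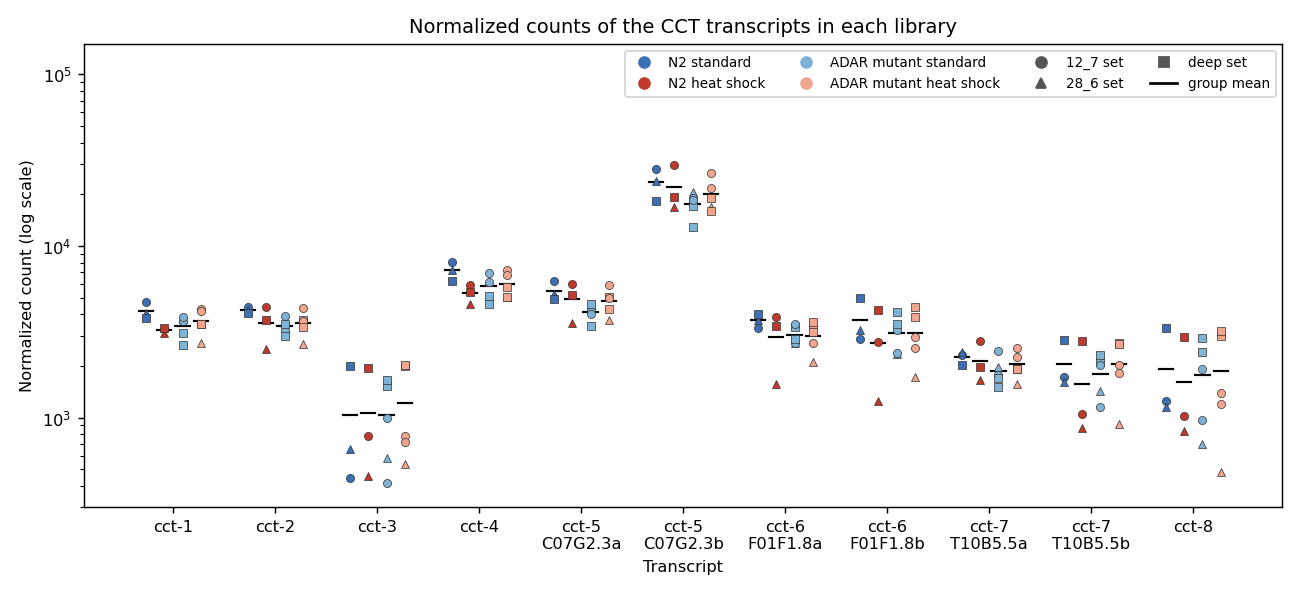
Normalized counts (log axis) of the 11 CCT transcripts in each of the 16 libraries. Colours give the group, marker shapes the set, and black bars the group means. The deep libraries (squares) of cct-3 and cct-8 lie above all shallow ones, while the groups overlap in most transcripts.

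The subunits cct-1, cct-2, cct-4 and cct-5 are orthologs of those which, in yeast, bind ATP most readily and form the more active side of the ring. For cct-4 the normalized counts in N2 were 8107, 7273 and 6269 under standard conditions and 5926, 4613 and 5416 after heat shock. In the ADAR mutants they were 6188, 6183, 5099, 6978 and 4573 under standard conditions and 5057, 7279, 5730, 6721 and 5022 after heat shock. Thus every heat-shocked N2 library was below every standard one, and the mutant groups overlapped. The log2 fold change on heat shock was -0.44 (SE 0.22, 95% confidence interval -0.90 to 0.02) in N2, with an adjusted p of 0.278 from limma, and 0.04 (SE 0.17) in the ADAR mutants, with an adjusted p of 0.964. The call in N2 depends on the model, since with the same fold change the adjusted p from limma was 0.0603 with the replicate block and 0.0376 with the set of libraries as a term.

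The other non-overlapping transcript on heat shock in N2 was that of cct-1, with 4681, 4082 and 3794 under standard conditions and 3263, 3097 and 3313 after heat shock. In the ADAR mutants cct-1 had 3772, 3653, 2631, 3873 and 3118 under standard conditions and 2733, 4312, 3498, 4184 and 3495 after heat shock, and these groups overlapped. Its log2 fold change was -0.37 (SE 0.21) in N2 and 0.09 (SE 0.16) in the mutants, and neither was called. In N2, 2 of 11 CCT transcripts did not overlap between treatments, where 18.6% of all transcripts did not. In the ADAR mutants it was 0 of 11, where 10.7% of all did not overlap.

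For cct-2 the N2 libraries had 4406, 4245 and 4038 normalized counts under standard conditions and 4379, 2501 and 3712 after heat shock. The library at 2501 is replicate 2, of the 28_6 set, and the library at 4379 lay among the standard ones. The C07G2.3b transcript of cct-5 had 28068, 24028 and 18340 under standard conditions and 29744, 16818 and 19253 after heat shock in N2, and ranged from 12857 to 26750 in the ADAR mutants. The C07G2.3a transcript was lower, at 3553 to 6252 in N2 and 3408 to 5885 in the mutants. The log2 fold changes on heat shock of these 3 transcripts were between -0.30 and -0.12 in N2 and between 0.05 and 0.20 in the mutants, and none was called.

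The subunits cct-3, cct-6, cct-7 and cct-8 are orthologs of those with the weaker hold on ATP in yeast, and a raised level of cct-8 is known in C. elegans to promote assembly of the complex. The N2 normalized counts of cct-3 were 446, 652 and 1986 under standard conditions and 783, 457 and 1938 after heat shock. In the ADAR mutants they were 585, 417, 1520, 998 and 1661 under standard conditions and 537, 780, 1986, 716 and 2034 after heat shock. The highest values in each group were those of the deep set, and the SE of the log2 fold change was accordingly large, 0.09 ± 0.72 (SE) in N2 and 0.20 ± 0.55 (SE) in the mutants.

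For cct-8 the N2 values were 1256, 1157 and 3322 under standard conditions and 1027, 830 and 2947 after heat shock. The mutants had 706, 972, 2419, 1920 and 2888 under standard conditions and 480, 1202, 2994, 1397 and 3206 after heat shock. As for cct-3, the deep libraries were the highest, and the log2 fold changes were -0.31 (SE 0.73) in N2 and -0.05 (SE 0.57) in the mutants.

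The F01F1.8b transcript of cct-6 had the lowest fold change of the 11 in N2, -0.56 on the log2 scale (SE 0.43, interval -1.46 to 0.35). Its normalized counts were 2870, 3214 and 4952 under standard conditions and 2755, 1241 and 4203 after heat shock in N2, so that replicate 2 stood furthest below its standard partner. The F01F1.8a transcript of cct-6 and the T10B5.5a and T10B5.5b transcripts of cct-7 had log2 fold changes of -0.42, -0.11 and -0.54 in N2 and -0.04, 0.12 and 0.13 in the mutants. None of them was called.

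**Figure D2:**
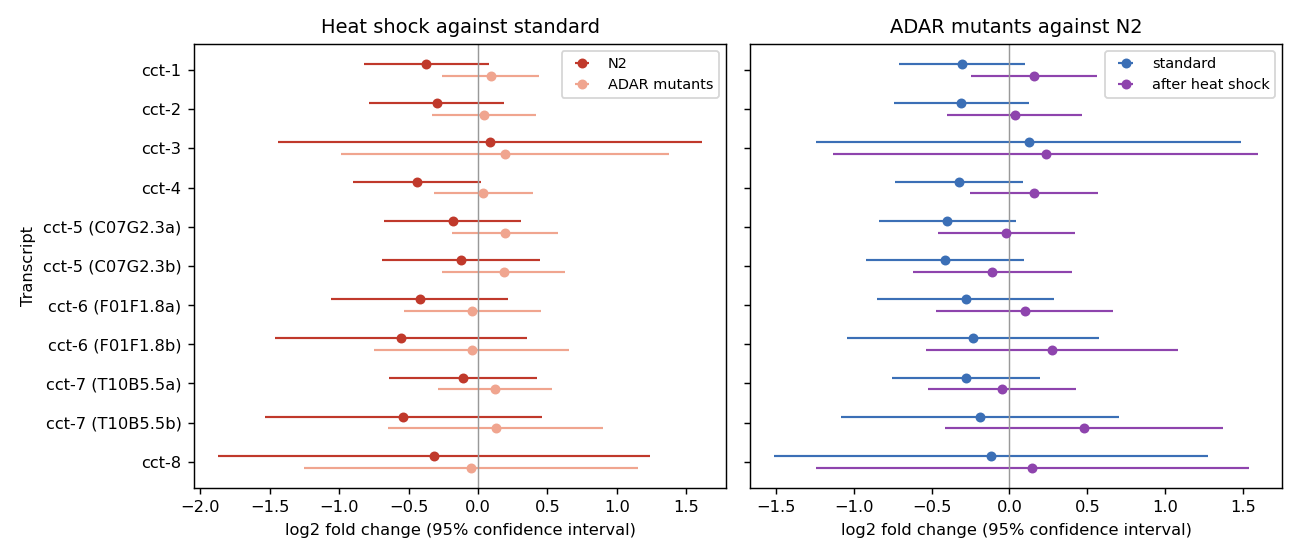
Log2 fold changes with 95% confidence intervals from limma for each CCT transcript (rows), for the heat-shock response of N2 and of the ADAR mutants (left) and for ADAR mutants against N2 under each condition (right). Every interval includes 0, and those of cct-3 and cct-8 are the widest.

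Across the 11 transcripts the response of N2 to heat shock ranged from -0.56 to 0.09 with a median of -0.31, and 10 were below 0. The median over all transcripts was 0.04. None was called (0 of 11, and 0 at an unadjusted p under 0.05, with 0 called by edgeR and 0 by DESeq2, which had 1 at such a p), where 2.90% of all transcripts were called and 19.8% had an unadjusted p under 0.05. The intervals of 6 of 11 lay within a 2-fold change in either direction, and those of the other 5 reached past it. In the ADAR mutants the log2 fold changes ranged from -0.05 to 0.20 with a median of 0.09, and 8 were above 0. Again 0 of 11 was called and 0 had an unadjusted p under 0.05 (0 called by edgeR and by DESeq2), where 7.40% and 20.5% of all transcripts did, and 9 of 11 intervals lay within 2-fold.

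The difference of the responses, mutants minus N2, was above 0 for all 11 transcripts with a median of 0.38 on the log2 scale, and it was largest for the T10B5.5b transcript of cct-7 at 0.67 (SE 0.59). It was called for 0 of 11, as for 0% of all transcripts (0 by edgeR and by DESeq2), and 0 of 11 had an unadjusted p under 0.05, where 1.40% of all did. Only 2 of the 11 intervals lay within 2-fold. Without the heat-shocked N2 replicate 2 the median difference was 0.11, with 8 of 11 above 0.

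The heat shock was next followed within the 8 pairs, each made of both treatments of 1 strain and replicate number. Same-numbered libraries deviated together, but they also share a set, so pairing by number cannot be told apart from the set. A fit with the replicate block also called 0 of 11 in N2, where 19.5% of all transcripts were called. There 3 of 11 had an unadjusted p under 0.05, where 38.1% of all had, and the lowest adjusted p was 0.0603 (limma) for cct-4. In the ADAR mutants it called 0 of 11, with 0 at such a p, where 23.0% and 37.1% of all were. In the 28_6 set all 11 transcripts were lower after heat shock, both in N2 replicate 2, at 0.386 to 0.759 of the standard value (median 0.680), and in BB4 replicate 1, at 0.642 to 0.919 (median 0.772). In the other sets the pairs went both ways. In BB4 replicate 2, BB4 replicate 3 and BB21 replicate 2 all 11 transcripts were higher after heat shock, with medians of 1.37, 1.12 and 1.13, while in N2 replicate 3 there were 9 of 11 lower with a median of 0.919, and N2 replicate 1 and BB21 replicate 1 were mixed, with 7 of 11 lower in each.

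**Figure D3:**
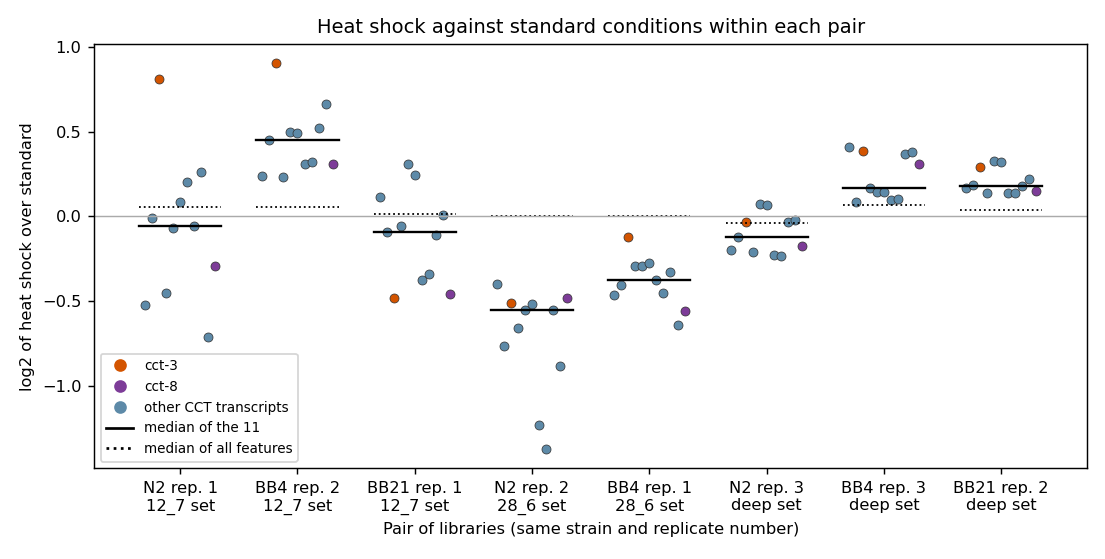
Log2 ratio of heat shock over standard conditions in each of the 8 pairs, with 1 point per CCT transcript, a solid bar for the median of the 11 and a dotted bar for the median of all transcripts. Both pairs of the 28_6 set lie wholly below 0, and 3 pairs of the mutants lie wholly above it.

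A fit with pairs as a block and 1 response per set, added after the values were seen, gave log2 fold changes of -0.91 to -0.32 in the 28_6 set. Of the 11, 9 had an unadjusted p under 0.05 and were lower, where 9.73% of all transcripts were. With edgeR this held for 4 of 11, where it held for 6.79% of all, and with quantile normalization for 2 of 11, where it held for 8.08%, with a median of -0.20 against -0.47. After adjustment 0 of 11 was called (lowest adjusted p 0.0822 from limma for the F01F1.8b transcript of cct-6; edgeR called 0), where 1.42% of all transcripts were, while DESeq2 called 2, both of cct-6, where it called 7.78% of all. In the 12_7 set the range was -0.15 to 0.41 and in the deep set 0.00 to 0.21. There 0 of 11 was called in each and 0 had an unadjusted p under 0.05 (0 called by edgeR and by DESeq2), where 30.6% and 16.6% of all transcripts were called. The response of the 28_6 set minus the mean of the other sets was -0.90 to -0.44. It was called for 0 of 11 (0 by edgeR and by DESeq2), where 0.115% of all were, and 7 of 11 had an unadjusted p under 0.05 and were lower, where 6.75% of all were.

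These calls turned on single libraries. Without either library of N2 replicate 2, 0 of the 11 in the 28_6 set had an unadjusted p under 0.05, and without either library of BB4 replicate 1 there were 3. Without either library of N2 replicate 1 the fit called 4 of the 11 in the 28_6 set, namely cct-2, both cct-6 transcripts and T10B5.5b of cct-7, and 2 of the 11 for the difference between the sets. The shares of all transcripts called were then 18.9% and 19.1% in the 28_6 set and 4.35% and 4.42% for the difference. Without either library of BB21 replicate 1, cct-3 was called higher in the 12_7 set, at 0.86 on the log2 scale (adjusted p = 0.0118 and 0.0116 from limma), against 0.41 (adjusted p = 0.236) with it, where 30.8% and 30.9% of all were called. In N2 the median response of the 11 was -0.31 with all libraries and -0.02 without heat-shocked replicate 2. Without the 28_6 libraries it was -0.07, with 7 of 11 below 0, and in the ADAR mutants 0.23, with 11 of 11 above 0. The set term in place of the block called 1 of 11 in N2, cct-4 (log2 fold change -0.44, adjusted p = 0.0376 from limma), where 22.9% of all transcripts were called.

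Other genes moved with the set. The median log2 ratio of the 9 inducible heat-shock genes was 0.35 and -0.04 in the 28_6 pairs, 2.82 to 3.42 in the 12_7 pairs and 1.60 to 1.85 in the deep pairs. The 4 transcripts of the mitochondrial chaperonin list had medians of -0.81 and -0.64 in the 28_6 pairs and -0.105 to 0.56 in the others. The constitutive HSP70 and HSP90 machinery had -0.43 and -0.52 in the 28_6 pairs and -0.22 to 0.37 in the others. Prefoldin had -0.49 and -0.21 against -0.38 to 0.28, and the actins -0.24 and -0.43 against -0.03 to 0.43. The oocyte and early embryo markers were lower in all 8 pairs, with medians down to -1.70. They were called lower for 2 of 9 transcripts in N2 and 7 of 9 in the mutants, and their summed normalized count was 30533 to 35323 in the N2 standard libraries and 11393 to 17527 after heat shock, and 24326 to 31578 and 7009 to 14190 in the mutants. The germ line markers had medians of -0.46 to -0.11, with summed counts of 27924 to 33953 and 19906 to 24893 in N2 and of 23640 to 28216 and 18790 to 25459 in the mutants, which overlap. The cuticle markers had a median of 0.63 in N2 (0 of 6 called, 1 at an unadjusted p under 0.05) and 1.85 in the mutants, where 1 of 6 was called higher. Intestine markers were called lower for 1 of 10 transcripts in N2 and 2 of 10 in the mutants. The part of these in the CCT values was not tested.

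The loss of ADARs was compared under each condition. Under standard conditions the log2 fold changes of the mutants against N2 were -0.41 to 0.12 with a median of -0.28, and 10 of 11 were below 0, whereas the median of all transcripts was -0.01. None was called (0 of 11, with 0 at an unadjusted p under 0.05, and 0 by edgeR and by DESeq2), where 0.00410% of all transcripts were called and 3.88% had an unadjusted p under 0.05. The largest differences were those of cct-5, with -0.41 (SE 0.24) for C07G2.3b and -0.40 (SE 0.21) for C07G2.3a. The groups did not overlap for 2 of 11, C07G2.3a and cct-2, where 4.81% of all transcripts did not. For C07G2.3a the N2 libraries had 6252, 5221 and 4894 normalized counts and the mutants 4537, 4162, 4561, 4007 and 3408. For cct-2 they had 4406, 4245 and 4038 against 3567, 3177, 3490, 3916 and 2972. After heat shock the differences were -0.11 to 0.48 with a median of 0.15. Again 0 of 11 was called and 0 had an unadjusted p under 0.05 (0 called by edgeR and by DESeq2), where 0% of all were called and 4.64% had such a p, and the groups overlapped for all 11, where 1.38% of all did not. Without the heat-shocked N2 replicate 2 the median was -0.21, with 8 of 11 below 0. The cuticle markers had median log2 differences of 1.49 under standard conditions and 2.44 after heat shock, with 0 of 6 called in each (2 and 5 at an unadjusted p under 0.05), and their part in the CCT values was not tested.

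Within a set the mutants can be read against the N2 library of the same set and treatment, which BB4 and BB21 share where both are present. In the deep set no mutant library has the title ending of the N2 library. There strain cannot be told apart from whatever the endings stand for. Under standard conditions all 11 transcripts were below N2 in BB4 replicate 2 (median ratio 0.763), BB4 replicate 1 (0.851), BB4 replicate 3 (0.813) and BB21 replicate 2 (0.736). The exception was BB21 replicate 1, where 5 of 11 were below N2 and cct-3 stood at 2.24 times the N2 value. The share of all transcripts below N2 in these libraries was 48.3% to 56.3%. After heat shock the median ratios were 0.914 to 1.05, with 3 to 8 of 11 below N2. With the set as a term, 11 of 11 were below 0 under standard conditions and 5 had an unadjusted p under 0.05, where 4.11% of all transcripts had such a p and were lower and 10.5% had it in either direction. The lowest adjusted p was 0.372 (limma).

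Between the deep and the shallow libraries the subunits differed at about the rate of all transcripts or below it. A fit with the group and the set as terms, added after the values were seen, called 4 of 11 higher in the deep set, where 35.7% of all transcripts were, and 2 of 11 lower, where 28.6% of all were. For cct-3 the 10 shallow libraries had 417 to 998 normalized counts (median 618.5) and the 6 deep ones 1520 to 2034 (median 1962), a log2 fold change of 1.61 (SE 0.18, adjusted p = 1.03e-06). For cct-8 the shallow libraries had 480 to 1920 (median 1092) and the deep ones 2419 to 3322 (median 2970.5), a log2 fold change of 1.61 (SE 0.17, adjusted p = 6.72e-07). Both genes were thus higher in all deep libraries and the sets did not overlap. The set split in the same way for F01F1.8b of cct-6, 1.76-fold higher, and T10B5.5b of cct-7, 1.88-fold higher, so that 4 of 11 did not overlap, where 32.8% of all transcripts did not. C07G2.3b of cct-5 and cct-4 were lower, at 0.806-fold (adjusted p = 0.0294) and 0.859-fold (adjusted p = 0.0440). These last 2 calls rested on single libraries, since leaving out any of 5 libraries ended the first and any of 10 the second (all adjusted p from limma). They were also lost with quantile normalization, which called 5 of 11 higher, F01F1.8a of cct-6 among them, and 0 lower, where it called 28.2% of all transcripts higher and 38.6% lower. The deep libraries differed in marker genes too. Of 11 sperm transcripts 9 were called lower and 2 higher, and of 17 body muscle transcripts 11 were called higher and 3 lower. Neurons had 11 of 19 higher and 2 lower, intestine 7 of 10 higher and 2 lower, and pharynx 5 of 7 higher and 2 lower. The part of these markers in the CCT values was not tested. The remaining 5 transcripts, those of cct-1 and cct-2, C07G2.3a of cct-5, F01F1.8a of cct-6 and T10B5.5a of cct-7, were not called, with log2 fold changes of -0.17 to 0.30.

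**Figure D4:**
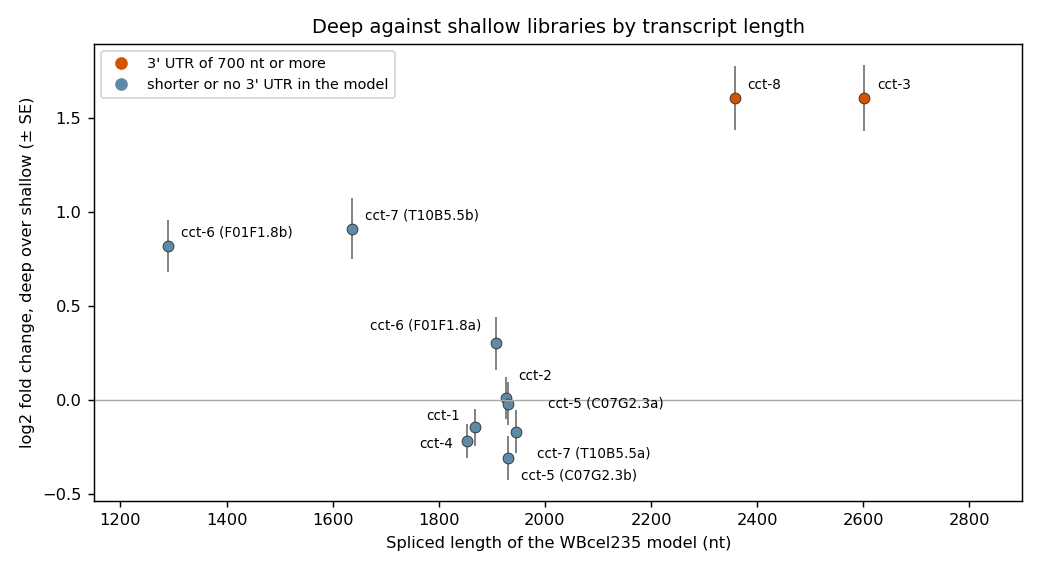
Log2 fold change (± SE) of the deep over the shallow libraries against the spliced length in nucleotides of the WBcel235 model, 1 point per CCT transcript. The genes cct-3 and cct-8, with 3' UTRs of 961 and 704 nt, are the highest, and the short models of cct-6 and cct-7 come next. The model of cct-8 is that of isoform a of the gene.

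The models of cct-3 and cct-8 have the longest 3' UTRs of the family, 961 and 704 nt, where the other models with a 3' UTR have 215 to 332 nt and F01F1.8b has 0. The counted cct-8 transcript had no model under its own name and was given that of isoform a of the gene, so its lengths may differ. Over all transcripts with a model, those with 3' UTRs of 400 nt or more had higher medians than those with shorter ones or none. Among 767 with a 3' UTR of 700 nt or more, 85.7% were called higher in the deep set with a median log2 fold change of 2.23, and among 13855 with a shorter one of under 400 nt, 26.5% were, with a median of -0.12. The order did not hold at the low end, since 2884 transcripts without a 3' UTR in the model, as for F01F1.8b, had a median of 0.35, with 38.6% called higher. Of transcripts with a coding length of 1500 to 1700 nt, which holds all CCT models but F01F1.8b and T10B5.5b, the median was 2.61 over 56 with 700 nt or more of 3' UTR 0.30 over 880 with a 3' UTR of under 400 nt and 0.93 over 137 with none. By spliced length the medians ran from -1.26 in 2643 transcripts up to 600 nt to 1.59 in 3149 over 2400 nt. These are descriptions over transcripts, which are not replicates. The short models of cct-6 and cct-7 do not follow the order by length. In the spliced class that ends at 2400 nt the median was 0.76, with 62.9% called higher and 5.31% lower. In that class cct-1, cct-2, cct-4, both cct-5 transcripts, F01F1.8a and T10B5.5a lay below this median, at -0.31 to 0.30. Among them cct-4 and C07G2.3b were called lower. The model given to cct-8 is in the same class, and cct-8 lay above the median at 1.61.

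For cct-5, cct-6 and cct-7 the b and a transcripts of 1 gene can be set against each other in each library. The ratio of b to a was 4.39 to 4.98 in the 10 shallow libraries and 3.74 to 3.77 in the 6 deep ones for cct-5. For cct-6 it was 0.719 to 0.946 and 1.21 to 1.23, and for cct-7 0.377 to 0.898 and 1.35 to 1.42. In none of the 3 genes did the sets overlap, and the deep libraries were close together. Within the pairs the ratio after heat shock over that under standard conditions had medians of 0.999 (cct-5), 0.998 (cct-6) and 1.01 (cct-7), with a range of 0.508 to 1.11. The lowest, 0.508, was that of cct-7 in N2 replicate 1, whose heat-shocked library is the shallowest of all at 4699505 reads.

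**Figure D5:**
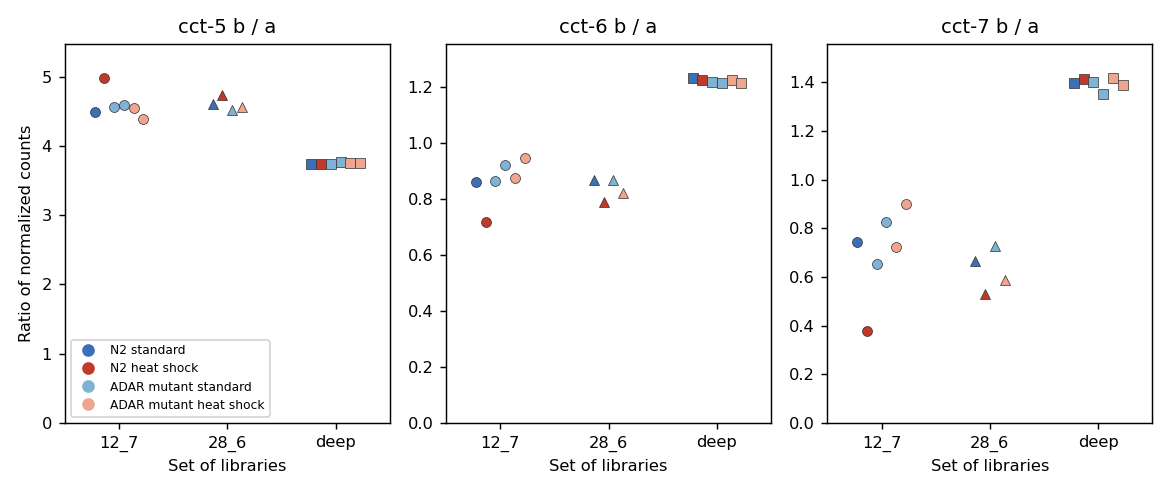
Ratio of the normalized count of the b transcript to that of the a transcript of cct-5, cct-6 and cct-7 in each library, by set, with colours for the groups. The deep libraries are close together and do not overlap the shallow ones. In the 28_6 set the heat-shocked libraries lie below the standard ones for cct-6 and cct-7, while those of cct-5 overlap. Within the narrow range of the deep set the BB21 libraries lie apart from the others, higher for cct-5 and lower for cct-6 and cct-7. The colours do not separate BB4 from BB21.

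Across libraries the subunits went together within a depth class. With 1 transcript per gene, all 28 pairs of genes had a positive Pearson's r of log2 counts over the 10 shallow libraries (0.18 to 0.94, median 0.70) and over the 6 deep ones (0.13 to 0.99, median 0.58). Over all 16 libraries it was 19 of 28, with a median of 0.41. There cct-3 and cct-8 had an r of 0.91 with each other, and cct-3 and cct-5 the lowest, -0.43. The libraries share strain, treatment, set and size factors, so these values are descriptions.

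The 10 genes most like the mean CCT profile, by Pearson's r over the 16 libraries among transcripts with a mean of at least 20, were tars-1 (0.97), H28O16.1 (0.94), wah-1 (0.91), acs-4 (0.89), pab-1 (0.89), hsp-6 (0.88), vha-15 (0.88), tbc-20 (0.88), hsp-60 (0.88) and Y38E10A.22 (0.88). The first encodes threonyl-tRNA synthetase, pab-1 the poly(A)-binding protein, and hsp-6 and hsp-60 the mitochondrial HSP70 and chaperonin. The r of tars-1 was 0.95 within the shallow and 0.98 within the deep libraries, and that of Y38E10A.22 0.91 and 0.36. The median over 18883 transcripts was 0.01, and 0.0318% exceeded 0.9. The members themselves ranged from 0.15 (C07G2.3b of cct-5) to 0.94 (F01F1.8b of cct-6). The profile was the mean over each gene's transcript of highest mean, so members that enter it are set in part against themselves. Their r are not comparable with those of other genes.

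The partners and clients of CCT were counted in the same tests. Of the 6 prefoldin genes, pfd-1 to pfd-6, which encode the cochaperone that passes actin and tubulin to CCT, none was called on heat shock in N2 (0 of 6, 0 at an unadjusted p under 0.05) or in the mutants (0 of 6, 0 at an unadjusted p under 0.05). Their median log2 fold changes were -0.14 and -0.16, and the most abundant, pfd-5, pfd-4, pfd-1 and pfd-6, had -0.16, -0.12, 0.07 and -0.54 in N2. All 6 were called lower in the deep set, where 28.6% of all transcripts were. Their log2 fold changes were -1.95 (pfd-1) to -0.51 (pfd-3), with adjusted p of 1.76e-08 (pfd-5) to 0.00290 (pfd-3) from limma. For pfd-5 the shallow libraries had 1671 to 2857 normalized counts and the deep ones 633 to 864. Thus the set difference of prefoldin was opposite in sign to that of cct-3 and cct-8. Such a difference went with length in general. Of coding transcripts with a model, 67.1% of those up to 600 nt were called lower, and 1.27% of those over 2400 nt. The part of length in the prefoldin values was not tested.

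Of 16 tubulin transcripts, 1 rose on heat shock in N2 and the same gene in the mutants, the beta-tubulin tbb-6, by 3.27 (SE 0.58, adjusted p = 0.0136) and 2.22 (SE 0.45, adjusted p = 0.0102) on the log2 scale (limma). The most abundant, tba-2, tbb-2, tba-1 and tbb-1, had log2 fold changes of -0.23, -0.34, -0.27 and -0.20 in N2 and were not called, and the list's median was 0.00 in N2 and 0.11 in the mutants. Of 7 actin transcripts, which share much sequence, none was called in N2 or the mutants (0 of 7, with 1 at an unadjusted p under 0.05 in each). Those of act-3, act-1, act-4 (M03F4.2b) and act-2 had -0.00, -0.01, -0.07 and -0.09 in N2. Of 5 transcripts of WD40 clients, gpb-1, gpb-2, fzr-1 and fzy-1, which encode G protein beta subunits and activators of the anaphase-promoting complex, 1 fell in the mutants, fzy-1, which fell by 0.66 on the log2 scale (SE 0.16, adjusted p = 0.0229 from limma). In N2 fzy-1 had -0.79 (adjusted p = 0.0549 from limma), and gpb-1 (F13D12.7a), gpb-2 and fzr-1 had -0.12, 0.22 and 0.60.

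Among other chaperones, 0 of 13 transcripts of the constitutive HSP70 and HSP90 machinery were called on heat shock in N2 (3 at an unadjusted p under 0.05) or in the mutants (1 at such a p). The most abundant, daf-21 (HSP90), hsp-1 (HSP70), hsp-110 and dnj-12, had log2 fold changes of -0.12, 0.09, -0.29 and -0.38 in N2, and the list had medians of -0.22 and -0.00, against -0.31 and 0.09 for CCT. Of the 4 transcripts of hsp-60, hsp-6 and Y22D7AL.10, 0 were called in either (0 at an unadjusted p under 0.05), with medians of -0.29 and 0.08. In N2 the hsp-60 transcripts had -0.48 and -0.35, hsp-6 -0.23 and Y22D7AL.10 -0.02. The gene of the heat-shock factor, hsf-1, had -0.50 and -0.23 and was not called.

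Of the 9 inducible genes, 3 rose in N2 and 6 in the mutants, with list medians of 2.01 and 1.88. In N2 these were the small heat-shock genes hsp-16.41 (2.22, SE 0.56, adjusted p = 0.0462) and hsp-16.48 and hsp-16.49, which share their reads (2.13, SE 0.53, adjusted p = 0.0460). In the mutants hsp-16.1, hsp-16.2 and hsp-16.11 also rose, by 1.75 to 1.84 (all p from limma). The HSP70 genes F44E5.4 and F44E5.5, the most abundant of the list, had 2.01 in N2 (adjusted p = 0.309 and 0.306 from limma) and 2.25 in the mutants (adjusted p = 0.113 and 0.112 from limma) and were not called.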

How the data were processed

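The signal values deposited by the authors are normalized counts. Per the study's methods, trimmed and collapsed single reads were placed on the WS220 transcripts by Bowtie, a read being free to match several, and reads were counted and analysed with DESeq2, so transcripts of 1 gene share reads. The deposited table is taken to hold these counts divided by DESeq2 size factors, a step the sources used here do not spell out. Versions and strand are not given in the sources used here. Every value (100%, tolerance 0.001) equalled a whole number of reads times 1 factor per library, which gave back the reads. The table of the authors' own fold changes and p-values was not used, nor was any column of another sample (0 unmatched).

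Tests used limma 3.58.1 in R 4.3.3 on log2(normalized count + 1) with a variance trend, for transcripts with a mean of at least 1, in 1 fit of 4 groups. Fold changes are on that scale. Reads were tested with edgeR 4.0.16 (TMM, quasi-likelihood) and DESeq2 1.42.0. The code was tested on simulated data. Transcript lengths came from WBcel235 models, and no coordinates were used. No CCT transcript passed the study's further threshold of a log2 fold change of 2. Standard and heat-shocked libraries of 1 strain and replicate number deviated together from their group means (r of 0.385 to 0.822 over all 8 pairs). Of the 8, 5 had their own partner as the best match. Both libraries of a pair also lie in 1 set, and the differences between sets were left in these deviations. The r therefore cannot tell pairing by replicate number apart from the shared set.

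Named genes are all transcripts of the 8 members, the 4 most abundant and any called genes of each pathway list, and the 10 genes closest to the mean CCT profile by Pearson's r. The extremes pfd-3 and the other deep-set values of prefoldin were picked with their values in view. The members, lists and tests were chosen with earlier results of these data known. Alternatives were other pseudocounts (0.5 and 10), filters (none, 20), scalings, tools, the replicate block, the set term, subsets of libraries and each library left out.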

Additional observations from a re-analysis of the deposited data

How the results depend on the processing

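In the 5 comparisons of the design the number of CCT transcripts called was 0 under each alternative that could be fitted, with 1 exception: with the set of libraries as a term it was 1 for heat shock in N2. With the replicate block it was 0 in N2, in the ADAR mutants and for the difference of the responses, and strains could not be compared in that fit. Of the comparisons added after seeing the data, DESeq2 called 2 for heat shock in the 28_6 set. Leaving out 1 library in turn gave 0 to 4 for that set, 0 to 1 for the 12_7 set and 0 to 2 for the 28_6 set against the others. The deep-set call of cct-4 turned from -0.22 to 0.12 with quantile normalization (adjusted p = 0.164 from limma), and that of C07G2.3b of cct-5 was lost there. The causes were not tested. Quantile normalization moved the median of all transcripts from 0.04 to -0.06 for heat shock in N2 and from 0.14 to -0.23 for the deep against the shallow libraries. The CCT median then went from -0.31 to -0.19 on heat shock in N2, with 9 of 11 below 0, and from -0.28 to -0.09 for mutants against N2 under standard conditions, with 8 of 11 below 0. The numbers of all transcripts called on heat shock in N2 were 577 higher and 131 lower, against 2335 and 2417 with the block, 1461 and 615 with DESeq2, 358 and 38 with edgeR and 0 and 0 with only the N2 groups in the fit. The smallest read count of a member, 244, carries a counting error of 6.40%, less than the spread between libraries of a group.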
